A study of Homo sapiens with 8 samples.

Results

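The regions described here were occupied strongly by both AML1-ETO and ETO2-GLIS2 after 48 h of induction and lay away from gene starts. The regions were chosen by measured values, the −log10 q, overlap and width of the 48 h peaks, together with their distance from annotated start sites. A region was an AML1-ETO peak with a −log10 q of at least 10 that shared at least 1 bp with an ETO2-GLIS2 peak of the same minimum. It was under 8000 bp wide, and its AML1-ETO summit, the point of highest signal, was more than 1 kb from every annotated transcription start site on chromosomes 1 to 22. The rule kept 3147 of 104677 AML1-ETO peaks at 48 h, out of 24845 that passed the minimum and 24167 that were also under 8000 bp wide. The ETO2-GLIS2 list held 29784 peaks, of which 10842 passed the minimum. These regions are called shared distal regions below.

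The study asked where each fusion protein binds when it is expressed in U937, a human monocytic cell line, and precipitated chromatin with anti-HA beads for sequencing (ChIP-seq). AML1-ETO (U937-AE, clone #4) and ETO2-GLIS2 (U937-EG, clone #14) carried an N-terminal HA tag and were induced with doxycycline at 5 µg/ml for 12 h or 48 h. Each line was 1 clone selected after retroviral transduction, with expression driven by a doxycycline-responsive promoter. The 12 h time stands in the sample titles and treatment labels, while the protocol text names 48 h. There was 1 ChIP library and 1 input for each protein and time, 8 libraries in all, so no difference between proteins or times has a replicate check, and the protein cannot be told apart from the clone. The study states a larger number of reads for the AML1-ETO than for the ETO2-GLIS2 library at 48 h, and since peak calls and −log10 q grow with depth, 1 minimum is not equally strict in both lists. The part of depth in the results was not tested. The 95% intervals given after shares cover counting error over regions only, and neighbouring regions are not independent.

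AML1-ETO joins the Runt domain of RUNX1, which binds the core TGTGGT or TGCGGT, to the corepressor-binding protein ETO. ETO2-GLIS2 joins the related protein ETO2 to the zinc fingers of GLIS2, which bind a G-rich sequence. Distal regions of this kind often act as enhancers, where myeloid factors of the ETS family such as PU.1, AP-1 dimers, C/EBP proteins and the basic helix-loop-helix E proteins bind next to each other, and the ETO part of both fusions is known to bind E proteins.

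Sequences from a few shared distal regions show how the consensus matches lie around the summits. The first set has some of the leading regions of both lists and regions at myeloid genes, each shown as the 200 bp window around the AML1-ETO summit on the plus strand of hg19 (GRCh37). Capitals mark matches on either strand to Runt (TGTGGT or TGCGGT, read as ACCACA or ACCGCA on the other strand), ETS (AGGAAGT, or ACTTCCT on the other strand), AP-1 (TGAGTCA, or TGACTCA on the other strand), C/EBP (TTGCNNAA), E-box (CAGCTG, the form meant by E-box below unless another is given) and GLIS (TGGGGGG, or CCCCCCA on the other strand).
chromosome 4 intergenic region, AML1-ETO summit, chr4:3878099-3878298: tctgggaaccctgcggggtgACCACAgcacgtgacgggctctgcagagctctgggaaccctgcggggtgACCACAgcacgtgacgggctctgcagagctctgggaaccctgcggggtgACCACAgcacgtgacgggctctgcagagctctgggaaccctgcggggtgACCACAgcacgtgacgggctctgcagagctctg
KIAA1614 intron 3, AML1-ETO summit, chr1:180895720-180895919: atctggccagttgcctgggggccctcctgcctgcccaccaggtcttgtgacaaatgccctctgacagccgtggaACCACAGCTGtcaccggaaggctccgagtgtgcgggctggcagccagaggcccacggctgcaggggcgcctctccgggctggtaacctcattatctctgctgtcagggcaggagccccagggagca
LINC01816 exon 2, AML1-ETO summit, chr2:70351248-70351447: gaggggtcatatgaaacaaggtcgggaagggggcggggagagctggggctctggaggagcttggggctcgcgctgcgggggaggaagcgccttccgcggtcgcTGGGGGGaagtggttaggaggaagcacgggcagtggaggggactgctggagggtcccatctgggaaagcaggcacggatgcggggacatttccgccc
RUNX1 intron 5, AML1-ETO summit, chr21:36237953-36238152: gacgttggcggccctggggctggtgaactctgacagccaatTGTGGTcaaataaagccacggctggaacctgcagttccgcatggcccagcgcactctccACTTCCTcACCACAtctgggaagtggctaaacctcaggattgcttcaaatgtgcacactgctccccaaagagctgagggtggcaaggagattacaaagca
SPI1 intron 3, AML1-ETO summit, chr11:47381251-47381450: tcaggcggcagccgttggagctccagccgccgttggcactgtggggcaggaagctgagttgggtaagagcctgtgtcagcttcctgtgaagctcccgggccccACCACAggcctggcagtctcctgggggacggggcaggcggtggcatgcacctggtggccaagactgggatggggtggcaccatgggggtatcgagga
CSF1R intron 2, AML1-ETO summit, chr5:149462115-149462314: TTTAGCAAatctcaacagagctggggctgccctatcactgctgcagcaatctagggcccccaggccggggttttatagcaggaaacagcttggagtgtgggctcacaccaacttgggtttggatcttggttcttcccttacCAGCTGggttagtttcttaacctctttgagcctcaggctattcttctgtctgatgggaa
TCF3 upstream region, AML1-ETO summit, chr19:1655535-1655734: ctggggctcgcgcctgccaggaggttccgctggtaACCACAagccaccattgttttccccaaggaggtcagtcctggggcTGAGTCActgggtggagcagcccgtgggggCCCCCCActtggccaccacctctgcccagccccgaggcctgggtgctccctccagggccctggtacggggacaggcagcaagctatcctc
The chromosome 4 window was a tandem repeat with 4 Runt matches, 1 in each copy. In the KIAA1614 window the Runt and E-box matches overlapped, and in the RUNX1 window an ETS and a Runt match were separated by 1 base. The SPI1 window held a Runt match, the CSF1R window a C/EBP and an E-box match, and the TCF3 window Runt, AP-1 and GLIS matches. Every window shown here held a match, which is not true of all regions. Of the leading regions named below, those in AHRR, RASA3 and ERCC1 and on chromosome 22 held none of these 6 sequences at the AML1-ETO summit. None of Runt, ETS, AP-1, C/EBP and E-box was in 27.7% of shared distal windows. The second set shows both summits of regions in which the summits stood apart.
BCL2L1 intron 3, AML1-ETO summit, chr20:30263237-30263436: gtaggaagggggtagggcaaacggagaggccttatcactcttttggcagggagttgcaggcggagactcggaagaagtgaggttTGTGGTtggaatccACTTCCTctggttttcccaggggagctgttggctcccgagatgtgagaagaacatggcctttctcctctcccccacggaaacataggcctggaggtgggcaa
BCL2L1 intron 3, ETO2-GLIS2 summit, chr20:30262824-30263023: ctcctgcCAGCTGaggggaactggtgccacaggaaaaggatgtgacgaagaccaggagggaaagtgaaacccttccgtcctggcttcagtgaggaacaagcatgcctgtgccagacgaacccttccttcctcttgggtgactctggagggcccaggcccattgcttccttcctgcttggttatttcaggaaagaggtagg
RUNX3 intron 2, AML1-ETO summit, chr1:25265894-25266093: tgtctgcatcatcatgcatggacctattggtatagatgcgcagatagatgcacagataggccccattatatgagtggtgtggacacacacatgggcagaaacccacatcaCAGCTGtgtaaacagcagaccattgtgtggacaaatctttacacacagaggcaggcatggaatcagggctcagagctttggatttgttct
RUNX3 intron 2, ETO2-GLIS2 summit, chr1:25266387-25266586: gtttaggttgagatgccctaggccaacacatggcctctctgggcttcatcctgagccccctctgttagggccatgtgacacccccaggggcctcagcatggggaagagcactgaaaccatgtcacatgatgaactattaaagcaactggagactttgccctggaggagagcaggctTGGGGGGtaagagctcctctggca
In the BCL2L1 region the summits were 413 bp apart, with Runt and ETS matches at the AML1-ETO summit and an E-box match at the ETO2-GLIS2 summit. In the RUNX3 region they were 493 bp apart, with an E-box match at the AML1-ETO summit and a GLIS match at the ETO2-GLIS2 summit. The AML1-ETO peak of the RUNX3 region was near the minimum (−log10 q of 11.2), as was the ETO2-GLIS2 peak of the BCL2L1 region (12.6). Other regions went the other way. Near BATF, with summits 556 bp apart, ETS and GLIS matches were at the AML1-ETO summit and a Runt match at the ETO2-GLIS2 summit.

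The values that selected the regions are given as a description. The AML1-ETO fold enrichment, the ratio of ChIP signal over local background at the summit, had a median of 16.1 (from 2.07 to 120), the median −log10 q was 62.4, and the median width was 2831 bp. The strongest overlapping ETO2-GLIS2 peak had a median fold of 12.9 (from 2.90 to 231), a median −log10 q of 27.8 and a median width of 719 bp. Folds from different libraries are not on one scale, so ranks by −log10 q within each list were also used and given as percentiles, in which the strongest peak is nearest to 0%. The median percentile was 7.12% for AML1-ETO and 18.0% for ETO2-GLIS2. The ETO2-GLIS2 peak was the narrower one in 96.5% (95.8 to 97.1) of regions and lay wholly inside the AML1-ETO peak in 87.3% (86.0 to 88.4). More than 1 strong ETO2-GLIS2 peak fell in 7.44% of regions, and 3138 distinct ETO2-GLIS2 peaks were the strongest partner of the 3147 regions. Fold was under 5 in 22 regions. Across regions, the folds of both proteins at 48 h had a Spearman rho of 0.374 (n = 3147 regions, which share the libraries and the local sequence).

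Members just inside and peaks just outside each threshold differed little in the value concerned. The lowest AML1-ETO −log10 q inside was 10.16 and the highest outside was 9.95, with 376 peaks outside by that criterion alone. For ETO2-GLIS2 the values were 10.02 and 9.9988, with 2778 regions outside. The widest region inside was 7984 bp, near RALGDS, and the narrowest outside was 8021 bp, near TMCC2, with 354 outside. The nearest summits inside were 1002 bp from a start site and the farthest outside 1000 bp, with 5103 outside. The 2778 regions with only weaker ETO2-GLIS2 peaks (weakly shared distal) and the 5103 regions with a summit within 1 kb of a start site (shared promoter) served for comparison. So did 7813 AML1-ETO only distal regions, which met the AML1-ETO criteria and overlapped no ETO2-GLIS2 peak at 48 h.

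The summits of both proteins coincided more often in shared distal regions than in either other shared class. The median distance was 46 bp, with an interquartile range of 14 to 208 bp. The summits lay within 50 bp of each other in 52.2% (50.4 to 53.9) of shared distal regions, in 30.3% (28.6 to 32.1) of weakly shared distal regions and in 30.2% (28.9 to 31.4) of shared promoter regions. The difference was 21.8 percentage points (19.4 to 24.3) from the weakly shared class and 22.02 points (19.9 to 24.2) from the promoters. It was 18.0 points from the promoters when these were weighted to the same ETO2-GLIS2 peak widths. At 12 h, in libraries the rule did not use, the summits lay within 50 bp in 47.1% (45.2 to 48.9) of the 2937 shared distal regions with both peaks, against 31.5% (29.2 to 33.8) and 28.0% (26.7 to 29.3). The weakly shared class was defined by weaker ETO2-GLIS2 peaks at 48 h. Its median ETO2-GLIS2 fold enrichment was 4.80 against 12.9 at 48 h and 5.33 against 13.3 at 12 h. The contrast with that class was not weighted by peak strength, and the part of strength in it was not tested. In 808 shared distal regions (25.7%, 24.2 to 27.2) the 48 h summits were at least 200 bp apart, against 42.5% and 42.8% in the other classes.

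**Figure D1:**
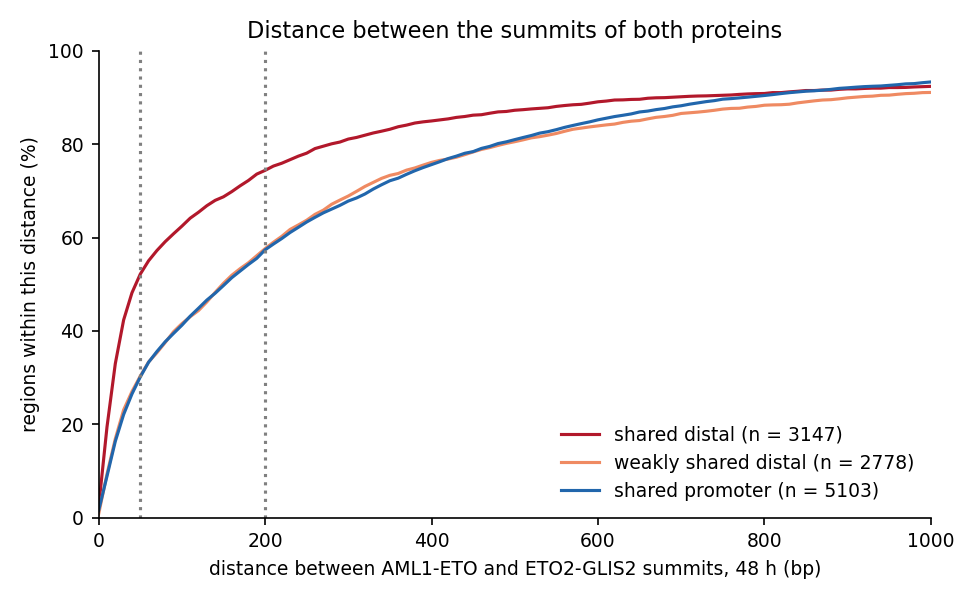
Share of regions (y axis, %) whose AML1-ETO and ETO2-GLIS2 summits at 48 h lie within a given distance (x axis, bp), for 3147 shared distal, 2778 weakly shared distal and 5103 shared promoter regions. Dotted lines mark 50 and 200 bp; at 50 bp the shared distal curve is at 52.2% and the others are at 30.3% and 30.2%.

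The 12 h libraries showed whether the regions were already occupied at the earlier time. An AML1-ETO peak was called at 12 h in 97.8% (97.2 to 98.3) of shared distal regions and an ETO2-GLIS2 peak in 95.01% (94.2 to 95.7). Over all 24167 AML1-ETO peaks of the same strength and width limits, these shares were 91.3% and 57.1%. Both proteins had a 12 h peak in 2937 regions (93.3%, 92.4 to 94.2), AML1-ETO only in 140, ETO2-GLIS2 only in 53 and neither in 17. The AML1-ETO share was 93.7% in weakly shared distal, 83.4% in AML1-ETO only distal and 98.6% in shared promoter regions. The ETO2-GLIS2 shares in the same classes were 60.3%, 21.5% and 97.2%. Shared distal regions exceeded AML1-ETO only distal regions by 14.4 points (13.4 to 15.4) for AML1-ETO and by 73.5 points (72.3 to 74.7) for ETO2-GLIS2. With the AML1-ETO only regions weighted to the same AML1-ETO −log10 q, the differences were 2.57 and 61.9 points. The classes were defined by their ETO2-GLIS2 peaks at 48 h, so a gap in the ETO2-GLIS2 share at 12 h was built into the comparison. Weighting by AML1-ETO −log10 q does not remove that choice. The 12 h and 48 h libraries of a protein came from the same clone, so these shares do not speak for other clones.

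**Figure D2:**
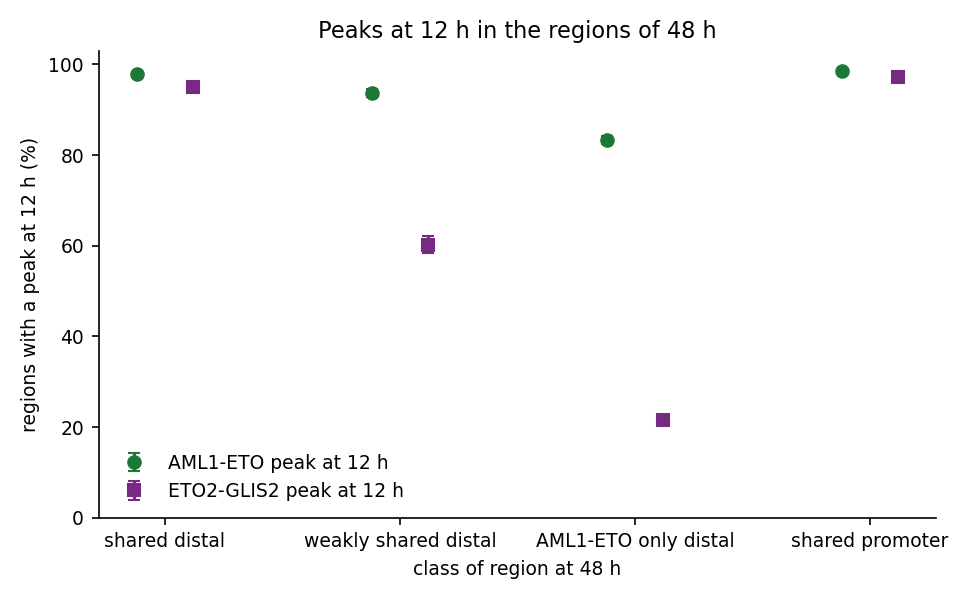
Share of regions with a 12 h peak (y axis, %) of AML1-ETO (circles) and ETO2-GLIS2 (squares) in 4 classes of 48 h regions (x axis), with 95% Clopper-Pearson intervals. ETO2-GLIS2 stands at 95.01% in shared distal regions and 21.5% in AML1-ETO only distal regions.

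Regions that were weaker at 48 h more often lacked a 12 h peak. The AML1-ETO share was 92.8% in the 787 regions with the lowest AML1-ETO −log10 q and 99.87% in the 787 with the highest. The ETO2-GLIS2 share went from 87.0% to 99.7% between the 787 lowest and the 787 highest by ETO2-GLIS2 −log10 q. A 12 h peak with a −log10 q of at least 10 was present in 85.8% of regions for AML1-ETO and 83.9% for ETO2-GLIS2. Summits moved little between times, with a median of 24 bp for AML1-ETO and 18 bp for ETO2-GLIS2. The folds at 48 h and 12 h had a Spearman rho of 0.781 for AML1-ETO (n = 3077) and 0.808 for ETO2-GLIS2 (n = 2990), over regions that share the clone and the local sequence.

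Most shared distal regions lay in introns. The AML1-ETO summit was intronic in 57.0% (55.3 to 58.7), exonic in 8.36% (7.41 to 9.38) and intergenic in 34.6% (33.0 to 36.3). In AML1-ETO only distal regions these shares were 61.2%, 5.87% and 33.0%, so that the intron share of shared distal regions differed by −4.15 points (−6.19 to −2.11) and the exon share by 2.48 points (1.42 to 3.62). The interval of the intergenic difference included 0 (1.67, −0.284 to 3.64). The median distance to the nearest start site was 7141 bp. It was under 5 kb in 39.0% of regions, between 5 and 50 kb in 57.6% and over 50 kb in 3.46%. Although the summit was distal, the AML1-ETO peak itself reached over a start site in 12.3% (11.1 to 13.5) of regions, against 1.46% of AML1-ETO only distal regions, whose AML1-ETO peaks had a median width of 1197 bp against 2831 bp. The part of width in this difference was not tested. The ETO2-GLIS2 summit was within 1 kb of a start site in 4.04%. Another shared distal summit was within 20 kb of 27.1% of them.

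The Runt core was the most frequent of the 6 main consensus sequences at the AML1-ETO summits, and ETS, GLIS and CAGCTG E-box matches were more frequent in shared distal than in AML1-ETO only distal regions. Each share is of 200 bp windows with at least 1 match on either strand, and matches may overlap each other. A Runt match was in 42.1% (40.4 to 43.9) of shared distal windows, against 34.8% of all 24167 AML1-ETO peaks and 18.4% of windows 1 kb to either side. ETS matches were in 16.4% (15.1 to 17.7), against 10% of all these peaks and 4.32% of the flanks. For the E-box the shares were 24.8% (23.3 to 26.3), 18% and 11.4%, in the same order. AP-1 gave 10.1% (9.07 to 11.2), 6.88% and 3.96%, and C/EBP 14.5% (13.2 to 15.7), 11.5% and 7.52%. The GLIS sequence was in 6.55% (5.71 to 7.47), 4.42% and 4.46%. All 6 were thus more frequent at the summits than in the flanks. Mean GC content was 57.6% at the summits and 49.9% in the flanks. The comparison with the flanks was not weighted by GC content, and the part of base composition in it was not tested.

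Against AML1-ETO only distal regions, the CAGCTG share was higher by 7.64 points (5.94 to 9.38), the ETS share by 4.90 points (3.45 to 6.40) and the GLIS share by 3.70 points (2.80 to 4.69). Other E-box forms differed less or not detectably. CACCTG, a form bound by E proteins, was in 16.5% (15.2 to 17.8) of shared distal and 16.2% of AML1-ETO only distal windows, a difference of 0.301 points (−1.21 to 1.86), and was less frequent than in the flanks (24.3%, difference −7.80 points, −9.45 to −6.10). CATCTG was in 19.3% and 17.3% (2.05 points, 0.463 to 3.69), and CACGTG, bound by MYC, in 5.62% and 4.17% (1.45 points, 0.567 to 2.41). The longer PU.1 form of the ETS match, GAGGAAGT, was in 6.77% and 4.30% of windows. AP-1 differed by 0.941 points, with an interval that included 0 (−0.262 to 2.21). The C/EBP share differed by −1.85 points (−3.30 to −0.344), but higher by 4.13 points once the AML1-ETO only windows were weighted to the same GC content. The Runt share was 42.1% in both classes, with an interval of the difference from −2.04 to 2.05. Runt depended on peak strength: with AML1-ETO only regions weighted to the same AML1-ETO −log10 q, the shared distal share was 10.5 points lower, and with weighting by GC content it was 4.86 points higher. The CAGCTG, ETS and GLIS differences kept their sign under both weightings, at 4.23, 6.63 and 2.08 points by GC content and 6.34, 2.48 and 3.41 points by −log10 q. Mean GC content was 57.6% in shared distal, 50.5% in AML1-ETO only distal and 70.0% in shared promoter windows.

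Shared promoter regions had fewer matches to 5 of the 6 main sequences. Runt matches were in 23.8% of promoter windows, 18.3 points below the shared distal share (16.2 to 20.4). ETS matches were in 6.47%, AP-1 in 2.88%, C/EBP in 4.43% and E-box in 17.0%. The GC-rich ETS form CCGGAAGT went the other way, with 3.21% of promoter and 0.763% of shared distal windows (−2.45 points, −3.03 to −1.87). CACCTG was in 16.1% of promoter windows, a difference of 0.384 points (−1.24 to 2.04). The GLIS share of 7.15% differed from the shared distal share by an interval that included 0 (−1.71 to 0.533). Mean GC content was 70.0% in promoter and 57.6% in shared distal windows. The comparison with promoters was not weighted by GC content, and the part of base composition in it was not tested. At least 1 match to Runt, ETS, AP-1, C/EBP or E-box was in 72.3% (70.7 to 73.8) of shared distal windows, 67.3% of AML1-ETO only distal windows, 43.6% of promoter windows and 39.1% of flanks. At least 2 of these 5 were in 29.2% (27.6 to 30.9) of shared distal and 24.4% of AML1-ETO only distal windows. Runt and E-box matches occurred in the same window in 9.44% (8.44 to 10.5), and the product of both single shares was 10.4%. Runt with ETS was in 6.74% (5.89 to 7.67), with a product of 6.90%.

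Matches were concentrated close to the summits. Within 20 bp of the AML1-ETO summit the Runt density was 4.69 matches per kb, 4.77 times that at 400 to 500 bp (0.985 per kb). The corresponding ratios were 4.84 for ETS, 4.11 for AP-1, 3.21 for E-box, 2.63 for C/EBP and 1.64 for GLIS. Around the ETO2-GLIS2 summit the ratio was 3.26 for Runt, 5.87 for ETS and 3.47 for GLIS. GLIS matches thus stood at 0.937 per kb at the ETO2-GLIS2 summit and at 0.5005 per kb at the AML1-ETO summit of the same regions.

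In the 808 regions with summits at least 200 bp apart, Runt matches were more frequent at the AML1-ETO summit and GLIS matches at the ETO2-GLIS2 summit. No Runt match was at either summit in 397 of these regions, and no GLIS match in 684. A Runt match was in 36.4% (33.1 to 39.8) of windows at the AML1-ETO summit and 23.1% (20.3 to 26.2) at the ETO2-GLIS2 summit of the same regions, a difference of 13.2 points (8.80 to 17.6). It was at the AML1-ETO summit alone in 224 regions and at the ETO2-GLIS2 summit alone in 117. GLIS matches were in 4.21% (2.93 to 5.83) and 11.3% (9.17 to 13.6), a difference of −7.05 points (−9.70 to −4.48), with 33 regions on the AML1-ETO side alone and 90 on the ETO2-GLIS2 side alone. ETS, AP-1, C/EBP and E-box shares differed by 1.24 to 1.98 points in size, with intervals that included 0. The intervals treat the windows as separate although each pair comes from 1 region. Mean GC content was 56.8% at the AML1-ETO summits and 59.9% at the ETO2-GLIS2 summits. With the ETO2-GLIS2 windows weighted to the GC content of the AML1-ETO windows, the differences were 9.90 points for Runt and −5.48 for GLIS.

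The 12 h summits of these regions gave the same order. Over all shared distal regions they lay a median of 24 bp (AML1-ETO) and 18 bp (ETO2-GLIS2) from the 48 h summits. The 200 bp windows of both times therefore often overlap, so this was not an independent check. Runt was in 35.2% of windows at the AML1-ETO 12 h summit and 26.2% at the ETO2-GLIS2 12 h summit (difference 9.02 points, 4.44 to 13.6, n = 776 regions). GLIS was in 4.90% and 9.79% (−4.90 points, −7.54 to −2.31). The offset itself was partly kept between times. The AML1-ETO 12 h summit was nearer to its own 48 h summit than to that of ETO2-GLIS2 in 582 of 792 regions (73.5%, 70.3 to 76.5), and the ETO2-GLIS2 12 h summit was nearer to its own in 622 of 789 (78.8%, 75.8 to 81.6). Both held in 438 of 776 (56.4%, 52.9 to 60.0).

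**Figure D3:**
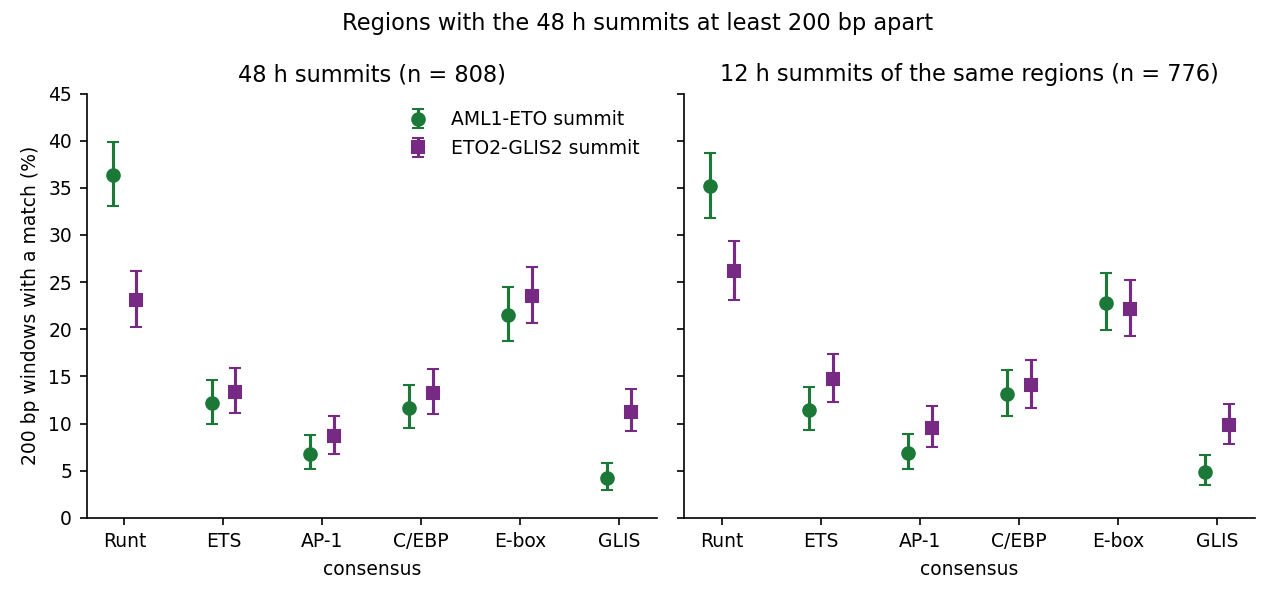
Share of 200 bp windows with a match (y axis, %) to each consensus (x axis) at the AML1-ETO summit (circles) and the ETO2-GLIS2 summit (squares), in regions whose 48 h summits are at least 200 bp apart, for 48 h summits (left, n = 808) and 12 h summits (right, n = 776), with 95% Clopper-Pearson intervals. Runt is higher at the AML1-ETO summit (36.4% against 23.1% at 48 h) and GLIS at the ETO2-GLIS2 summit (11.3% against 4.21%).

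Regions were also ordered by the difference between their AML1-ETO and ETO2-GLIS2 ranks at 48 h. These ranks come from the values that chose the regions, so the shares are a description. The 1049 regions that leaned most to AML1-ETO had Runt matches in 47.1% of AML1-ETO summit windows, C/EBP in 16.7% and AP-1 in 11.4%. In the 1049 that leaned most to ETO2-GLIS2 these shares were 36.1%, 13.1% and 8.29%. CAGCTG was in 21.6% and 27.9%, GLIS in 4.00% and 9.44% and ETS in 16.2% and 18.7%, in the same order.

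The regions that ranked highest for both proteins were also near the top at 12 h. The strongest by the larger of both percentiles lay in intron 7 of AHRR, the repressor of the aryl hydrocarbon receptor (chr5:413566-420869). Its AML1-ETO fold was 42.1 at 48 h and 26.1 at 12 h, its ETO2-GLIS2 fold was 155 and 98.9, and its percentiles in the 4 lists were between 0.00672% and 0.612%. The next was in intron 1 of the non-coding gene DLEU2 (chr13:50695496-50703355), with AML1-ETO folds of 86.0 and 48.1 and ETO2-GLIS2 folds of 159 and 125 at 48 h and 12 h. Both regions were thus in the strongest 1% of every list.

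The other leading regions had similar values at 48 h and differed more at 12 h. KIAA1614 intron 3 had AML1-ETO folds of 77.4 at 48 h and 11.5 at 12 h, a percentile of 0.135% and then 6.79%, and ETO2-GLIS2 folds of 130 and 61.5. LINC01816 exon 2 had AML1-ETO folds of 61.2 and 66.9 and ETO2-GLIS2 folds of 131 and 96.3. RASA3 intron 3, in a gene for a Ras GTPase-activating protein, had folds of 62.0 and 35.4 and of 137 and 127. Of the leading regions described here, KIAA1614 was the only one with a 12 h percentile above 1.5%. The region in intron 1 of the repair gene ERCC1, which is within 20 kb of the AP-1 gene FOSB, had AML1-ETO folds of 59.7 and 39.6 and ETO2-GLIS2 folds of 109 and 97.5. The intergenic regions on chromosomes 22, 4 and 9 had AML1-ETO folds of 68.0, 67.2 and 58.5 at 48 h and 39.2, 61.3 and 41.3 at 12 h. Their ETO2-GLIS2 folds were 88.8, 115 and 114 at 48 h and 94.6, 112 and 111 at 12 h.

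Shared distal regions lay in or within 20 kb of 2865 of 19222 protein-coding genes, a background of 14.9%, and the share rose with gene length from 11.5% of the shortest to 18.2% of the longest 4806 genes. The lists of genes below were chosen with results of these data known, so their counts are descriptions. Of 25 myeloid transcription factor genes, 10 (40%, 21.1 to 61.3) had a region, and 16 (64%) had an AML1-ETO only distal region, against 28.4% of all genes. Of 12 AP-1 family genes, 7 (58.3%, 27.7 to 84.8) had one, with a median gene length of 8.80 kb against 27.6 kb over all genes. The counts were 7 of 21 for the ETO family, E proteins and corepressors, 10 of 32 for monocyte and granulocyte genes and 6 of 19 for cell cycle and survival genes. Megakaryocyte and platelet genes had 2 of 19 (10.5%, 1.301 to 33.1), and neuron and liver genes, which are not typical of monocytic cells, 3 of 22 (13.6%, 2.91 to 34.9). These last shares are near the background, and all intervals are wide.

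Among myeloid transcription factors, RUNX1, the source of the Runt domain of AML1-ETO, had 4 regions over its 1217 kb. The RUNX1 intron 5 region (chr21:36236161-36240332) had AML1-ETO folds of 47.3 at 48 h and 70.5 at 12 h and ETO2-GLIS2 folds of 21.8 and 16.4. Its AML1-ETO percentiles were 0.359% and 0.0985% and its ETO2-GLIS2 percentiles 8.68% and 8.91%, so it ranked higher for AML1-ETO at both times. SPI1, which encodes PU.1, showed the opposite order. Its intron 3 region (chr11:47378992-47384071) had AML1-ETO folds of 39.9 and 33.4 (1.57% and 1.96%) and ETO2-GLIS2 folds of 118 and 92.6 (0.413% and 0.671%). In its intron 1 region (chr11:47394559-47400984) the AML1-ETO folds were 18.6 and 13.7 and the ETO2-GLIS2 folds 46.2 and 64.4, with the 48 h summits 1816 bp apart. Only the AML1-ETO summit was in intron 1. The 48 h ETO2-GLIS2 summit (chr11:47400223) lay next to the 5' end of SPI1 (chr11:47400098), which the AML1-ETO peak also covered. The 48 h ETO2-GLIS2 fold of this region thus belongs to a summit at the gene start, not to a distal one. The region downstream of IRF8, the interferon regulatory factor of monocytes (chr16:85960946-85966048, in an intron of an overlapping non-coding gene), had AML1-ETO folds of 23.8 and 20.7 and ETO2-GLIS2 folds of 27.2 and 40.4. IKZF1 and RUNX3 had 2 regions each with folds below 31 in all 4 lists.

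ZMIZ1, a coactivator gene, had 8 regions, and PRKCE, a protein kinase C gene, had 7. MBP and PREX1 had 6 each, as did KCNQ1 and PTPRN2. TCF3, which encodes the E proteins E12 and E47, had 3. The region upstream of TCF3 (chr19:1653939-1656857) had AML1-ETO folds of 19.1 and 12.2 (6.13% and 11.7%) and ETO2-GLIS2 folds of 69.8 and 63.4 (1.59% and 1.63%). HDAC1, a histone deacetylase gene, had 2 within 20 kb, both outside the gene. The one with the higher ETO2-GLIS2 rank was intergenic, 1323 bp from the start site of MARCKSL1. It had AML1-ETO folds of 19.3 and 24.9 and ETO2-GLIS2 folds of 122 and 152. The nearest coding start site to the other was that of TSSK3, at 2208 bp. At ID3, an inhibitor of E proteins, the AML1-ETO folds were 33.6 and 12.4 and the ETO2-GLIS2 folds 54.7 and 28.7.

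AP-1 genes had 1 region each, and those near JUND, BATF, ATF3 and FOSL2 were intergenic. JUND had AML1-ETO folds of 30.6 and 24.001 and ETO2-GLIS2 folds of 69.8 and 51.9 at 48 h and 12 h, with 48 h summits 1080 bp apart. BATF had folds of 30.4 and 48.3 and of 36.2 and 53.7, ATF3 had 38.5 and 28.0 and 39.7 and 29.1, and FOSL2 had 19.9 and 13.4 and 33.6 and 32.7. All 4 loci therefore had peaks of both proteins at both times.

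At monocyte genes, the region with the highest AML1-ETO rank was near ITGAL, an integrin gene (chr16:30467961-30472782), with AML1-ETO folds of 53.2 and 58.6 and ETO2-GLIS2 folds of 49.7 and 51.7. CSF1R, the receptor of macrophage colony-stimulating factor, had a region in intron 2 (chr5:149461086-149463738) with AML1-ETO folds of 27.4 and 37.1 and ETO2-GLIS2 folds of 17.9 and 27.5. FCGR1A, an Fc receptor gene, had folds of 23.2 and 16.1 and of 31.3 and 22.8. The region near ITGAX lay in the neighbouring integrin gene ITGAD, with AML1-ETO folds of 16.1 and 25.8 and ETO2-GLIS2 folds of 62.1 and 68.2. Of the megakaryocyte genes, the region near NFE2 lay in intron 1 of COPZ1. It had AML1-ETO folds of 37.6 and 48.0 and ETO2-GLIS2 folds of 89.9 and 87.8. The region near VWF had 48 h folds of 7.53 and 8.62 and no AML1-ETO peak at 12 h.

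Of the cell cycle and survival genes, BCL2L1, which encodes the survival protein BCL-XL, had 5 regions and no AML1-ETO only distal region. Their 48 h folds ran from 4.88 to 18.9 in the AML1-ETO list and from 5.34 to 23.8 in the ETO2-GLIS2 list, and each had both peaks at 12 h. The region near CDKN1A, which encodes the cell cycle inhibitor p21, had AML1-ETO folds of 29.9 and 13.1 and ETO2-GLIS2 folds of 45.2 and 40.7. CCND3 had 3 regions, of which 1 had no ETO2-GLIS2 peak at 12 h, and RB1 had 2. CDK6 had 1, with folds of 27.1 and 17.9 and of 14.9 and 14.9. Of the neuron and liver genes, the strongest by AML1-ETO fold was an intergenic region, 1 of 3 near SLC17A7. It had AML1-ETO folds of 45.4 and 21.4 and ETO2-GLIS2 folds of 12.9 and 10.0. The others near SLC17A7 lay in KASH5. DLG4 had 2 regions in or within 20 kb of it. For the one in exon 5 of PHF23, no 12 h ETO2-GLIS2 peak overlapped the AML1-ETO peak. Its 48 h ETO2-GLIS2 summit lay 1680 bp from the AML1-ETO summit and outside the AML1-ETO peak, so a 12 h peak at that summit could go uncounted. SERPINA1 had 1, with 48 h folds of 11.5 and 9.91. Its AML1-ETO summit was outside the gene, while the AML1-ETO peak reached over the 5' end of the gene.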

How the data were processed

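Peak lists of 4 HA ChIP libraries (AML1-ETO and ETO2-GLIS2, 12 and 48 h of doxycycline) were analysed, 1 library for each condition. By the submitters' processing notes (per the labels), the authors used Bowtie2 2.2.9 and SAMtools 1.7 on the hg19 build and called peaks with MACS2 2.1.1.20160309, and deepTools is also named. Their settings, duplicate removal and artefact filters are not given in the sources used here. In the deposited lists, fold enrichment is a linear ratio of ChIP signal over local background, the −log10 p-value and −log10 q-value come from the peak caller, and the deposited score restates that q-value as a whole number for nearly all peaks. Another deposited column places the summit. These values grow with depth. The study states unequal read numbers for the libraries, which were not used here. Percentiles are ranks by −log10 q within a list. Inputs were not analysed here.

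Start sites, exons and introns were taken from GENCODE release 44 lifted to GRCh37, with introns numbered in the transcript of the host gene that holds the summit and has the most exons. Sequences were read from GRCh37. The 18 consensus sequences were searched on both strands in 200 bp windows, with no weight matrices. Every match to the long Runt form (TGTGGTT) also holds a Runt match, and every PU.1 match an ETS match. Intervals are 95% Clopper-Pearson for shares and Newcombe for differences, which cover counting error only. No p-value was computed, since regions are not replicates. Weighting by GC content used bins of 4% and by −log10 q 10 bins. Overlap and match counting were tested on simulated data. Analyses used Python 3.11.15, numpy 2.4.6, pandas 2.3.3, scipy 1.17.1, pysam 0.24.0 and matplotlib 3.10.9.

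The members, classes, gene lists and consensus sequences were chosen with earlier results of these data known. Named regions were the 10 with the smallest larger percentile, members in or within 20 kb of listed genes (up to 5 genes for each of 7 lists, by number and then percentile), the 5 protein-coding genes with the most members (ties added), and those at the thresholds. Alternatives were other −log10 q minima, overlaps, widths, start sites, windows, backgrounds and weightings. Leaving out folds under 5, applying the rule to the 12 h lists, and the alternatives for summit distances, 12 h differences and separated summits were chosen after seeing the data. Some regions and genes that this rule names are not reported here.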

Additional observations from a re-analysis of the deposited data

How the results depend on the processing

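No paired analysis was possible because each condition has 1 library and the labels give no replicate numbers. The limits are the single library per condition, the unequal depth of the libraries and the single −log10 q minimum applied to them. Of 100 alternative values for 15 results, 59 stayed within the interval of the reported value (for the number of regions, within 1.5 times), 38 moved further and 3 reversed a difference whose interval did not include 0. The cause was not tested. With both minima lowered to 5, there were 5141 regions, and 92.9% of them had an AML1-ETO and 83.5% an ETO2-GLIS2 peak at 12 h. With at least 20 there were 1801 regions, with 99.4% and 98.6%. Counting only 12 h peaks with a −log10 q of at least 10 gave 85.8% and 83.9%. When distance was taken from coding genes alone, the intronic share was 54.0%. The 12 h lists under the same rule held 3781 shared distal regions. For match shares of shared distal minus AML1-ETO only distal windows, the lower minimum gave 7.70 points for Runt, 6.59 for ETS, 2.63 for AP-1, 2.66 for GLIS and 1.77 for C/EBP, which reversed. With the higher one, Runt was −5.81, C/EBP −3.60, E-box 10.2 and GLIS 5.26. In 100 bp windows ETS was 2.83 and GLIS 1.95. Weighted by GC content, Runt was 4.86, ETS 6.63, E-box 4.23, GLIS 2.08 and C/EBP 4.13, which again reversed. Weighted by −log10 q, Runt was −10.5, ETS 2.48, AP-1 −1.94 and C/EBP −3.37. Against the flanks 1 kb away, Runt was 23.7, ETS 12.0, AP-1 6.15, E-box 13.4, GLIS 2.08 and C/EBP 6.94, which was counted as the third reversal. These values set shared distal summits against their own flanks instead of AML1-ETO only distal regions. They are thus an unlike comparison, although the counts of moved and reversed values include them. The 12 h difference from AML1-ETO only distal regions was 61.9 points for ETO2-GLIS2 and 2.57 for AML1-ETO when weighted by −log10 q, and 59.9 and 3.68 when weighted by width. The share of summits within 50 bp exceeded that of promoters by 18.0 points at equal ETO2-GLIS2 width. In regions with summits at least 500 bp apart, the GLIS difference was −4.24 points. The Runt and AP-1 differences, whose intervals included 0, took either sign. The CAGCTG, ETS and GLIS differences stayed above 0 under every alternative run, which did not include the other E-box forms.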

Other observations

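Other consensus sequences also differed between shared distal and AML1-ETO only distal windows. Mean GC content was 57.6% and 50.5% in these windows. The shares were not weighted by GC content, and the part of base composition in them was not tested. GATA matches (AGATAA), which were in 7.83% of the flanks of shared distal summits, were in 4.73% (4.02 to 5.54) of shared distal windows at the AML1-ETO summit and 7.67% of AML1-ETO only distal windows. The G-rich CTCF core (AGGGGGC), which is part of the site of the insulator protein CTCF, was in 9.91% (8.89 to 11.0) and 4.12%, and the GC box (GGGCGG) in 16.1% and 6.41%, against 60.9% in shared promoter windows. In regions with summits at least 200 bp apart, AGGGGGC was in 7.92% of windows at the AML1-ETO summit and 14.1% at the ETO2-GLIS2 summit, a difference of −6.19 points (−9.25 to −3.15), and at the 12 h summits in 7.22% and 14.3%. The G-run of AGGGGGC is shared with the GLIS sequence TGGGGGG. Among 6-letter sequences without CpG that were in at least 5% of shared distal windows, AACCAC had the highest ratio to the flanks, with 25.9% of shared distal windows against 8.33% (27.8% in AML1-ETO only distal windows). It was followed by GGGCCC, with 21.1% against 7.93% (9.33%), and by ACTTCC, with 28.1% against 11.4% (21.4%). With CpG sequences included, AACCAC ranked only 8 by this ratio. Every sequence above it held CpG, led by CCGCGG, with 5.75% against 1.16% (1.54%).

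Shared distal regions were spread unevenly over chromosomes. There were 1.17 per Mb of known sequence over all 22 chromosomes, from 3.58 on chromosome 19 and 2.87 on chromosome 17 to 0.416 on chromosome 4. Per AML1-ETO only distal region there were 0.697 on chromosome 19 and 0.272 on chromosome 4. Only 17 regions were within 100 kb of a chromosome end, and 2 had the same 200 bp summit sequence.

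At BCL2L1, −log10 q was high for the fold: the intron 3 region with an AML1-ETO fold of 18.9 had a −log10 q of 165, and the SPI1 intron 1 region with a fold of 18.6 had 70.6. This locus was singled out after its values were seen.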
